A study of Polypedilum vanderplanki with 24 samples.

Results

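The 47 genes described here are the DNA replication genes of the midge Polypedilum vanderplanki. They were chosen as the genes whose annotation carries the gene ontology terms DNA replication or DNA replication initiation, among the 17782 genes of the deposited expression table. The first term was on 42 of them, the second on 12, and both were on 7. Their messenger RNA was measured in Pv11, a cell line of this midge that survives drying after treatment with concentrated trehalose. Poly(A) RNA of 4 lines was sequenced before the treatment (T0) and at the end of 48 h of it (T48). Each of the 8 groups had 3 libraries. WT is the parental Pv11 line. The Hsf1-/- line is 1 clone in which a cassette of AcGFP1 and a zeocin resistance gene interrupts exon 1 of Hsf1, the gene of heat shock factor HSF1. The Hsf1-/- HaloTag/BlaR line, called the control line below, was made from that knockout and has HaloTag and the blasticidin resistance gene BlaR at the locus g7775. The Hsf1-/-; Hsf1-HaloTag/BlaR line, called the HSF1-rescue line, was made from the same knockout. It has FLAG-tagged Hsf1 at that locus together with the same HaloTag and resistance gene. That locus was abundantly expressed in every group, from 12040 TPM in the HSF1-rescue line at T48 to 102838 TPM in WT at T0. The control and HSF1-rescue lines share the Hsf1 disruption because both were made from the knockout. Both were sorted as single cells, so they differ from each other as clones as well as by Hsf1. Each derived line also differs from WT by its history as a clone as well as by its genotype.

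DNA replication starts where the origin recognition complex (ORC) binds DNA. CDC6 and CDT1 then load the ring-shaped MCM2-7 helicase, which CDC45 and the GINS complex switch on in S phase. Polymerase alpha with primase lays down primers, polymerases delta and epsilon extend them behind the sliding clamp PCNA, which replication factor C (RFC) places on DNA, and replication protein A (RPA) covers the single strands. In animal cells many of these genes are transcribed in cycling cells and are low in resting ones. HSF1 binds DNA at heat shock elements, which are repeats of the block GAA and its reverse complement TTC.

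The table lists matches to 5 heat shock factor motifs in a search region of 1000 bases around the start of each gene, found by the authors with a motif scanner, and all 9705 of them lie on the strand of the gene. Of the 47 replication genes 11 (23.4%) had a match, against 4901 of all 17782 genes (27.6%). With the 4 longer motifs alone (JASPAR matrices MA0770.1, MA0771.1 and both versions of MA0486), 6 of the 47 (12.8%) had one, against 19.1% of all genes. These 6 are all the replication genes with such a match. They include 3 of the 6 helicase subunits and some genes with wide differences below. The helicase subunits MCM3, MCM4 and MCM7 had no match to any of the 5 motifs. Each is written 5′ to 3′ on the strand of its gene with GAA and TTC blocks in capitals.
MCM5 (g658, chr1:5031388-5031400, plus strand, MA0771.1): tgctgGAAtaTTC
RPA1 (g657, chr1:5031383-5031395, minus strand, MA0771.1): TTCcagcatcatc
MCM6 (g6299, chr2:16031774-16031786, minus strand, MA0770.1): ttataGAAcattt
MCM2 (g12531, chr3:24274861-24274873, minus strand, MA0770.1): TTCgagcatgttt
Polymerase alpha B subunit (g947, chr1:7003756-7003768, plus strand, MA0770.1): ctctaGAActttt
RTEL1 (g3512, chr1:26082250-26082262, plus strand, MA0770.1): TTCgaGAAatttt

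Only the MCM5 and RTEL1 matches among these held more than 1 block. The MCM5 and RPA1 matches share 8 bases on opposite strands, since these genes lie head to head with 552 bases between their annotated starts. Both matches lie outside that interval, past the annotated start of MCM5 (5031371). MCM6 and the gene of PCNA (g6300) form a like pair with 595 bases between them, and the MCM6 match lies in that interval. MCM2 and the gene of the large primase subunit (g12532) form another with 190 bases between them. The MCM2 match lies outside that interval, past the annotated start of g12532 (24274555). Among all 17683 pairs of adjacent genes, 2096 (11.9%) pointed away from each other within 1000 bases. The other 5 genes with a match (RFC3, polymerase delta Cdc27-type subunit, polymerase gamma-1, polymerase theta and WRNIP1) had one to the short yeast matrix MA0319.1 only. A match is a sequence found in a window, and binding was not measured here. By position, 17 of the 47 genes lay on chromosome 1, 10 on chromosome 2, 18 on chromosome 3, 1 on chromosome 4 and 1 on an unplaced scaffold.

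Expression is given as TPM, tags per kilobase of transcript scaled to a fixed total, which allows levels to be compared between genes. The table holds only the mean of each group, so no difference below has an error or a test, and the depth behind each value cannot be read from it. Neighbouring levels in an order of groups can therefore not be told apart from equal ones. A gene was counted as at least 2-fold higher or lower where it reached a mean of 1 TPM in one of the groups compared and the values of log2(TPM + 1) were 1 or more apart. All log2 ratios use this pseudocount of 1, so that changes of low genes come out too small, and are as deposited unless scaling is named. TPM is a share of a total, and the median of all genes moved between groups: for T48 against T0 it lay at a log2 ratio of 0.53 in WT, 0.30 in Hsf1-/-, 0.35 in the control line and 0.08 in the HSF1-rescue line. Scaled values, given where they change the picture, are the means divided by median-of-ratios factors (0.778 in WT at T0 to 1.23 in the control line at T48), which bring the typical gene to 1 level. The entry for Hsf1 (g3611) was below 1 TPM in every group, from 0.00892 in the HSF1-rescue line at T0 to 0.307 in WT at T48, so the table does not check the labels of the lines. Western blots by the authors showed HSF1 protein in the HSF1-rescue line and none in the control line. The g3611 value was therefore not read as the level of Hsf1 transcripts. In bulk RNA, fewer cells that replicate and less RNA per such cell cannot be told apart.

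Of the 47 genes 45 reached 1 TPM, and these did so in all 8 groups. Nuclear factor 1 (g16831) was at 0 in every group, and g9433, which has a polymerase family A palm domain only, stayed below 1 TPM (highest 0.961, in the control line at T48). Over 48 h in trehalose, replication genes passed the 2-fold limit downwards in both lines without HSF1 and in neither line with it as deposited. Counting a difference of any size, 14 of 45 were lower at T48 in WT, 32 in Hsf1-/-, 38 in the control line and 34 in the HSF1-rescue line (30, 42, 42 and 36 after scaling). In the control line 16 of 45 were at least 2-fold lower, against 8.25% of the 8330 genes tested. In Hsf1-/- it was 12 of 45, against 8.26% of 8337. In the HSF1-rescue line it was 0 of 45, against 6.7% of 8162, and in WT 0 of 45, against 4.61% of 8522. The 2 lines without HSF1 had 11 of these genes in common. At least 2-fold higher were 3 genes in WT (25.7% of all genes), 1 in Hsf1-/- (22.7%), 1 in the control line (24.5%) and 0 in the HSF1-rescue line (11.5%).

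The median log2 ratio of the 45 genes over the treatment was 0.30 in WT, -0.42 in Hsf1-/-, -0.66 in the control line and -0.33 in the HSF1-rescue line. Each was below the median of all genes in the same line. After scaling these medians were -0.20, -0.69, -1.02 and -0.42, and the median of all genes was -0.01 in WT and closer to zero in the other lines. The scaled count of genes at least 2-fold lower was 2 in WT (11% of all genes), 18 in Hsf1-/- (14%), 23 in the control line (14%) and 0 in the HSF1-rescue line (7.95%). None was then 2-fold higher, against 12.6%, 15.5%, 15.5% and 10.5% of all genes in the same order. The direction of the WT median thus depended on the scale, whereas the order of the 4 lines did not. Lower at T48 in all 4 lines were 9 of the 45 genes as deposited, against 13.6% of all genes, and 26 after scaling, against 26.8%. The control line had the more negative response of the pair in 34 of 45 genes when set against the HSF1-rescue line, and Hsf1-/- had it in 38 of 45 when set against WT. Among the 8963 genes of at least 1 TPM in some group these shares were 36.6% and 61.3%. After scaling it was 37 and 37 of 45, against 51.4% and 50.3%.

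The MCM2-7 helicase held the widest changes. The summed level of its 6 subunits was 446.7 TPM in Hsf1-/- and 458.1 TPM in the control line at T0, against 275.4 TPM in the HSF1-rescue line and 164.1 TPM in WT. At T48 the sums were 131.2, 93.8, 176.9 and 158.2 TPM in the same order. By these sums the 2 lines without HSF1 went from the top of the order to the bottom of it. After scaling they did so too, with sums of 462.2, 486.6, 306.8 and 210.8 TPM at T0 and 108.4, 76.6, 185.5 and 135.4 TPM at T48. As deposited the order at T48 did not hold for every subunit. MCM7 was at 21.9 TPM in Hsf1-/- against 20.2 TPM in the HSF1-rescue line, and MCM4 was at 18.0 TPM in Hsf1-/- against 17.8 TPM in WT.

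MCM2 (g12531, chromosome 3, 24271421 to 24274364, minus strand) was the most abundant subunit in every group. Its means were 64.0 and 45.4 TPM in WT at T0 and T48, 174.6 and 33.3 TPM in Hsf1-/-, 186.7 and 23.8 TPM in the control line, and 102.6 and 61.4 TPM in the HSF1-rescue line. Over the treatment it was 7.85-fold lower in the control line and 5.24-fold lower in Hsf1-/-, but 1.67-fold lower in the HSF1-rescue line and 1.41-fold lower in WT. MCM3 (g1168, chromosome 1, 8458365 to 8460925, plus strand) had means of 15.4 and 17.9 TPM in WT, 64.6 and 16.04 TPM in Hsf1-/-, 66.8 and 8.86 TPM in the control line and 39.1 and 25.9 TPM in the HSF1-rescue line. Its level at T48 in the control line was the lowest of the 48 helicase subunit means, 7.54-fold below T0. In WT, MCM3 was 1.16-fold higher at T48 as deposited and 1.30-fold lower after scaling.

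MCM4 (g11583) had means of 21.8 and 17.8 TPM in WT, 56.9 and 18.0 TPM in Hsf1-/-, 53.3 and 13.3 TPM in the control line and 33.8 and 20.4 TPM in the HSF1-rescue line. MCM7 (g6252) had 26.9 and 22.4 TPM, 61.0 and 21.9 TPM, 65.0 and 13.9 TPM, and 37.0 and 20.2 TPM in the same order. Both were lowest in WT and next lowest in the HSF1-rescue line at T0, as MCM2 was. MCM6 (g6299) had 25.6 and 38.3 TPM in WT, 63.7 and 29.2 TPM in Hsf1-/-, 62.2 and 23.2 TPM in the control line and 44.3 and 34.1 TPM in the HSF1-rescue line. MCM5 (g658), the lowest subunit in 7 of the 8 groups, had 10.3 and 16.5 TPM, 25.9 and 12.7 TPM, 23.98 and 10.8 TPM, and 18.6 and 14.8 TPM. MCM5 and MCM6 were thus higher at T48 in WT as deposited (log2 ratios of 0.63 and 0.56, or 0.09 and -0.01 after scaling), while they were lower in the other 3 lines. The median log2 ratio of the 6 subunits was -0.03 in WT, -1.52 in Hsf1-/-, -2.04 in the control line and -0.64 in the HSF1-rescue line (-0.59, -1.83, -2.40 and -0.72 after scaling). The subunits were also more alike in level at T48 in all 4 lines. The highest over the lowest was 7.79-fold at T0 and 2.68-fold at T48 in the control line, and 6.73-fold and 2.62-fold in Hsf1-/-. It was 6.22-fold and 2.75-fold in WT, and 5.51-fold and 4.14-fold in the HSF1-rescue line.

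**Figure D1:**
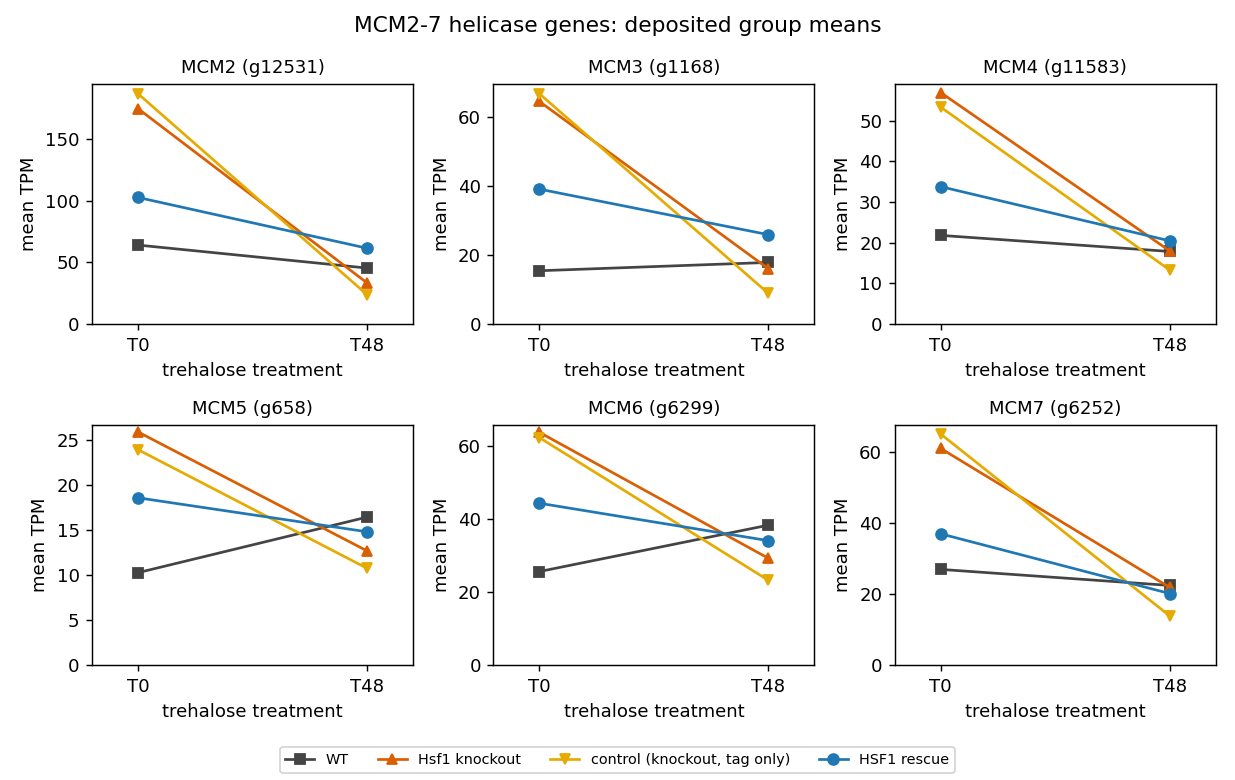
Mean TPM (y axis, from 0) of each MCM2-7 subunit at T0 and T48 (x axis) in the 4 lines. Points are deposited group means with no error available. Hsf1-/- and the control line start highest for all 6 subunits, and at T48 the control line is lowest for all 6, with MCM2 at 23.8 TPM against 61.4 TPM in the HSF1-rescue line.

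The subunits of ORC, which marks origins, were low, with sums over ORC2 to ORC6 of 17.4 to 42.5 TPM. ORC2 (g747) was at 3.42 and 7.80 TPM in WT at T0 and T48, 8.19 and 4.74 TPM in Hsf1-/-, 9.35 and 3.85 TPM in the control line and 5.31 and 5.84 TPM in the HSF1-rescue line. ORC2 was therefore higher at T48 in WT and lower in both lines without HSF1. In the HSF1-rescue line it was nearly level, with a log2 ratio of 0.11 (0.04 after scaling). ORC6 (g3618) was at 3.81 and 4.41 TPM, 12.8 and 4.19 TPM, 9.90 and 3.11 TPM, and 9.52 and 6.32 TPM in the same order. It was 3.05-fold lower at T48 in Hsf1-/- and 3.18-fold lower in the control line. ORC3 (g6161), ORC4 (g7060) and ORC5 (g2684) had log2 ratios over the treatment from -0.91 (ORC4 in the control line) to 0.90 (ORC5 in WT), and none passed the 2-fold limit as deposited. After scaling ORC4 did so in the control line (-1.20). Their levels at T48 were lowest in the HSF1-rescue line, at 3.03, 1.93 and 4.66 TPM, against 5.70, 2.76 and 7.59 TPM in the control line. CDC6 (g10203), which helps ORC to load the helicase, was at 16.0 and 19.4 TPM in WT, 37.3 and 16.8 TPM in Hsf1-/-, 35.5 and 17.7 TPM in the control line and 23.5 and 14.6 TPM in the HSF1-rescue line. At T48 its 4 means lay within 14.6 and 19.4 TPM, after a range of 16.0 to 37.3 TPM at T0.

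The partners that turn the loaded helicase on were lowest in WT and next lowest in the HSF1-rescue line at T0, and their lines lay closer together at T48. MCM10 (g5987), which acts in helicase activation, was at 6.36 and 6.03 TPM in WT, 22.4 and 6.20 TPM in Hsf1-/-, 22.0 and 4.75 TPM in the control line and 13.0 and 7.36 TPM in the HSF1-rescue line. CDC45 (g4117), a subunit of the active helicase, was at 41.3 and 31.1 TPM, 82.1 and 34.2 TPM, 84.9 and 30.6 TPM, and 55.4 and 29.5 TPM. In contrast to MCM2, CDC45 at T48 differed little between lines, with a log2 ratio of -0.05 for HSF1-rescue over control (0.30 after scaling). The GINS subunits Psf1 (g7139) and Psf2 (g10601) had log2 ratios over the treatment of -1.10 and -0.80 in the control line, -1.23 and -0.93 in Hsf1-/-, -0.79 and -0.24 in the HSF1-rescue line and 0.41 and 0.60 in WT. After scaling they were -1.44 and -1.16, -1.52 and -1.23, -0.87 and -0.33, and -0.12 and 0.06 in the same order. Psf1 was between 8.01 and 12.7 TPM and Psf2 between 12.7 and 17.2 TPM at T48. Of these 4 genes 3 were at least 2-fold lower in each line without HSF1 and none in the others.

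Among the replicative polymerases the B subunit of polymerase alpha (g947), the enzyme that makes primers with primase, had the widest difference. It was at 13.8 and 9.21 TPM in WT, 32.9 and 9.04 TPM in Hsf1-/-, 36.2 and 5.83 TPM in the control line and 17.2 and 9.96 TPM in the HSF1-rescue line, so that it was 6.20-fold lower at T48 in the control line. The catalytic subunit of polymerase alpha (g3813) was at 8.81 and 15.6 TPM, 23.6 and 12.4 TPM, 25.2 and 11.8 TPM, and 17.1 and 15.4 TPM. Both subunits were lower at T48 in Hsf1-/-, the control line and the HSF1-rescue line, but in WT they went opposite ways as deposited (log2 ratios of -0.54 and 0.76). The catalytic subunit of polymerase epsilon (g14177), which extends the leading strand in yeast, was at 6.91 and 18.6 TPM in WT and between 10.7 and 16.4 TPM in the other 6 groups. It was 2.69-fold higher at T48 in WT, 1.79-fold after scaling. The B subunit of polymerase epsilon (g9531) had log2 ratios of 0.51 in WT, -0.39 in Hsf1-/-, -0.63 in the control line and -0.19 in the HSF1-rescue line (-0.01, -0.69, -0.97 and -0.27 after scaling).

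The small subunit of polymerase delta (g1673), part of the polymerase that extends primed DNA, ranged from 11.7 TPM in WT at T0 to 22.3 TPM in the control line at T0. The Cdc27-type subunit of polymerase delta (g4231) was at 18.3 and 37.6 TPM in WT, 10.1 and 11.8 TPM in Hsf1-/-, 11.6 and 9.24 TPM in the control line and 12.2 and 13.1 TPM in the HSF1-rescue line. Both WT means were thus above all 6 means of the derived lines, the HSF1-rescue line included, and g4231 was the only one of the 45 that was at least 2-fold lower in Hsf1-/- than in WT at T48.

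The clamp loader subunits were less uniform. RFC3 (g3527) was at 10.7 and 9.83 TPM in WT, 30.2 and 14.3 TPM in Hsf1-/-, 31.7 and 13.1 TPM in the control line and 18.9 and 11.7 TPM in the HSF1-rescue line. RFC4 (g11810) was at 14.8 and 25.1 TPM, 33.0 and 17.4 TPM, 36.7 and 14.3 TPM, and 19.9 and 20.1 TPM. Both were at least 2-fold lower at T48 in the control line, but RFC4 had a log2 ratio of 0.01 in the HSF1-rescue line (-0.07 after scaling). RFC1 (g11763), the large subunit, was at 32.1 and 19.97 TPM in the control line and 23.9 and 13.9 TPM in the HSF1-rescue line, with log2 ratios of -0.66 and -0.74. RFC2 (g3973) had a log2 ratio of -0.15 in the control line and -0.47 in the HSF1-rescue line, and RFC5 (g13886) had -0.53 and -0.13. RFC1 and RFC2 thus had the more negative response in the HSF1-rescue line as deposited, unlike RFC3, RFC4 and RFC5, but after scaling RFC1 had -1.02 in the control line and -0.82 in the HSF1-rescue line, and RFC2 had -0.52 and -0.55.

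The single-strand binding complex was unequal in its response in the lines without HSF1. RPA1 (g657), its large subunit, was at 93.4 and 87.6 TPM in WT, 194.8 and 103.3 TPM in Hsf1-/-, 193.6 and 79.3 TPM in the control line and 128.3 and 119.7 TPM in the HSF1-rescue line. RPA3 (g5449), its small subunit, ranged only from 85.1 to 122.1 TPM over the 8 groups. RPA1 was 2.44-fold lower at T48 in the control line and 1.07-fold lower in the HSF1-rescue line, while the log2 ratios of RPA3 lay between -0.12 and 0.06 in the 4 lines. After scaling those of RPA3 were -0.62 in WT, -0.26 in Hsf1-/-, -0.49 in the control line and -0.15 in the HSF1-rescue line. Those of RPA1 were then -0.67, -1.23, -1.65 and -0.19. The large subunit of ribonucleotide reductase (g4510), which makes deoxynucleotides, was at 61.7 and 84.0 TPM in WT, 103.3 and 103.7 TPM in Hsf1-/-, 109.4 and 96.7 TPM in the control line and 84.5 and 106.8 TPM in the HSF1-rescue line. It had the order of the helicase at T0 with smaller differences over the treatment, at log2 ratios of 0.44, 0.01, -0.18 and 0.34 in the same order of lines (-0.14, -0.32, -0.55 and 0.25 after scaling).

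Of the 4 other genes with an MCM domain, 3 had a more negative response in the HSF1-rescue line than in the control line, where MCM2-7 had the opposite. The genes g13561 and g12845 share their best match, MCM8, a helicase of DNA repair in other animals, and how alike they are in sequence was not measured, so the split of reads between them is uncertain. The former was at 15.1 and 20.5 TPM in WT, 19.8 and 27.8 TPM in Hsf1-/-, 21.9 and 30.2 TPM in the control line and 12.3 and 9.54 TPM in the HSF1-rescue line. At T48 its level in the HSF1-rescue line was 3.16-fold below that of the control line, 2.46-fold after scaling. The latter was between 1.15 and 4.68 TPM, and was the only member at least 2-fold higher at T48 in Hsf1-/- and in the control line as deposited. Of the others, g11054 was at 4.57 and 7.87 TPM in the control line and 1.68 and 2.10 TPM in the HSF1-rescue line, while g5841 had the order of MCM2 at T0 (5.998 TPM in WT, 7.46 in the HSF1-rescue line, 9.496 in Hsf1-/- and 11.9 in the control line) and log2 ratios over the treatment from -0.71 in the control line (-1.04 after scaling) to 0.05 in WT (-0.46). The genes g13561 and g11054 were the 2 members counted as lower in the HSF1-rescue line than in the control line at T48, against 14.2% of all genes (also 2 after scaling, against 7.02%).

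The enzymes of mitochondrial DNA replication followed the nuclear ones only in part. Polymerase gamma-1 (g10316), its catalytic subunit, ranged from 19.4 to 30.0 TPM and had log2 ratios over the treatment of 0.57, 0.27, 0.28 and 0.19 in WT, Hsf1-/-, the control line and the HSF1-rescue line. After scaling these ratios were 0.01, -0.04, -0.08 and 0.11. Polymerase gamma-2 (g13820), its accessory subunit, was at 28.3 and 22.7 TPM in WT and 29.7 and 27.1 TPM in the HSF1-rescue line, but at 44.0 to 49.1 TPM in the 4 groups without HSF1. The helicase Twinkle (g1838) ranged from 6.16 to 11.8 TPM and had the order of MCM2 at T0. Its T0 means were 6.16 TPM in WT, 8.21 in the HSF1-rescue line, 9.18 in Hsf1-/- and 11.8 in the control line. Its log2 ratios over the treatment were 0.34, -0.16, -0.35 and -0.09 in WT, Hsf1-/-, the control line and the HSF1-rescue line (-0.18, -0.45, -0.69 and -0.16 after scaling). The bacterial-type single-stranded DNA-binding protein (g2623) was at 80.9 and 98.0 TPM in the control line and 83.1 and 51.5 TPM in the HSF1-rescue line. None of these 4 genes was 2-fold different over the treatment in any line. Their median log2 ratio was -0.03 in Hsf1-/- and 0.12 in the control line (-0.34 and -0.25 after scaling).

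Helicases and repair enzymes that carry the replication term were mixed. The genes g13013 and g3237 share their best match, the Bloom syndrome helicase BLM, and reads may be split between them. The gene g13013 was at 12.5 and 5.90 TPM in Hsf1-/- and 12.7 and 6.80 TPM in the control line, whereas g3237 ranged only from 5.74 to 6.95 TPM over the 8 groups. RTEL1 (g3512), a helicase that unwinds recombination intermediates, was at 37.0 and 19.7 TPM in the control line and 23.9 and 15.3 TPM in the HSF1-rescue line. WRNIP1 (g12669), an ATPase that acts at stalled forks, was at 11.7 and 30.3 TPM in WT, and the other 6 means were 11.8 to 21.6 TPM. Polymerase theta (g9660), which joins broken ends, ranged from 1.74 to 3.58 TPM. WRNIP1, the catalytic subunit of polymerase epsilon and the Cdc27-type subunit of polymerase delta were the 3 members at least 2-fold higher at T48 in WT, and none of them was so after scaling.

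The remaining genes are annotated outside replication. The transcription elongation factor Elf1 (g2507), which carries the term through a zinc-finger superfamily, was at 40.4 and 37.9 TPM in WT, 59.9 and 62.2 TPM in Hsf1-/-, 55.6 and 58.3 TPM in the control line and 70.1 and 90.3 TPM in the HSF1-rescue line. It was the only member that was highest in an HSF1-rescue group. The polymerase gene g17611, on an unplaced scaffold and of a mitochondrial or viral type, ranged from 2.69 to 4.54 TPM.

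**Figure D2:**
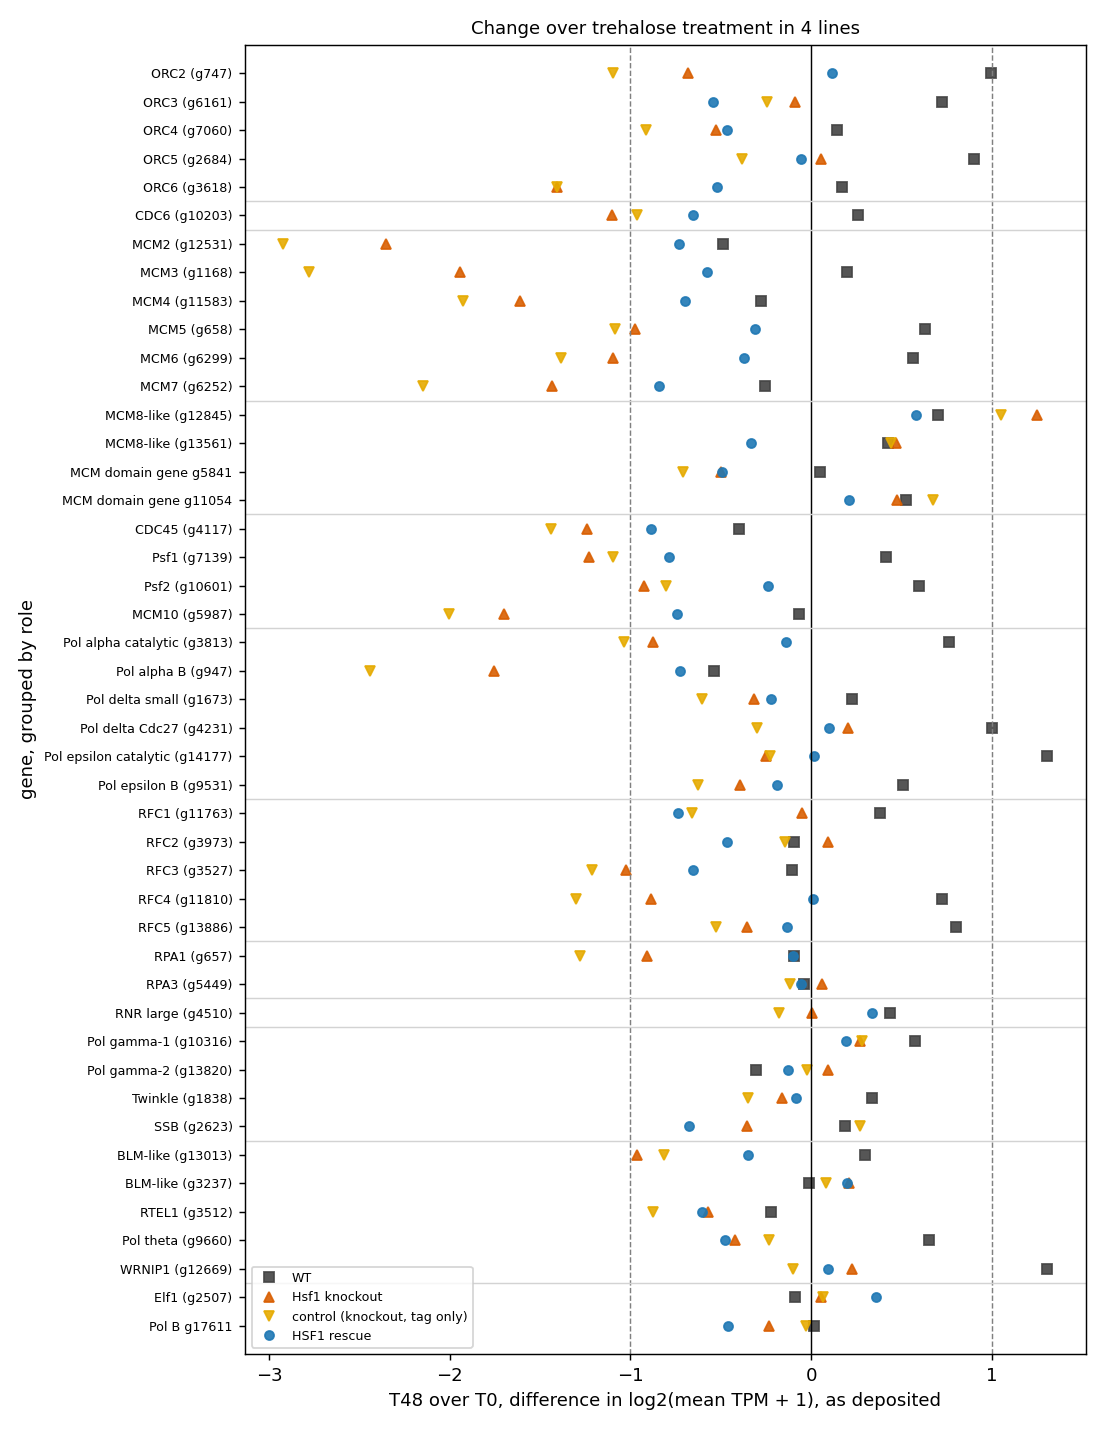
Difference in log2(mean TPM + 1) between T48 and T0 (x axis) for the 45 genes of at least 1 TPM (y axis, grouped by role) in the 4 lines. Dashed lines mark a 2-fold change and points have no error. The triangles of the lines without HSF1 lie farthest to the left for MCM2, at -2.92 in the control line and -2.36 in Hsf1-/-, while no circle of the HSF1-rescue line passes the left dashed line.

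The knockout was set against WT to see where the genes stood without HSF1. At T0 they were higher in Hsf1-/- than in WT in 42 of 45 cases (65.0% of all genes of at least 1 TPM in some group), with a median log2 ratio of 0.87 against 0.29 over all genes. At least 2-fold higher were 20 of 45, against 13.4% of the 7847 genes tested, and 0 were 2-fold lower, against 5.59%. All 6 MCM2-7 subunits were among the 20, from a log2 ratio of 1.15 for MCM7 to 2.00 for MCM3, and so was MCM10, at 1.67. After scaling the median was 0.63, the count of 2-fold higher genes was 9 against 7.16% of all genes, that of 2-fold lower genes was 1 against 9.01%, and 40 of 45 genes were higher (49.0% of all). The Cdc27-type subunit g4231 went the other way, with a log2 ratio of -0.79 as deposited, and it was the 1 lower gene after scaling, 2.24-fold. At T48 the median log2 ratio of Hsf1-/- over WT was 0.01 (-0.03 after scaling). Only 1 gene was then 2-fold higher, against 4.32% of all genes, and 1 was lower, against 4.84%: polymerase gamma-2, with 49.1 TPM against 22.7 TPM, and g4231, with 11.8 TPM against 37.6 TPM. The response of Hsf1-/- minus that of WT had a median of -0.85 (-0.64 after scaling).

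The control line was made from Hsf1-/- and differs from it by the tag and resistance gene and by being a separate clone. This pair shows how far apart 2 related lines without HSF1 lay. None of the 45 genes was 2-fold different between them at T0 or at T48, where 0.403% and 1.38% of all genes at T0 and 1.17% and 1.5% at T48 were higher or lower in the control line. The median log2 ratio of control over Hsf1-/- was 0.05 at T0 and -0.14 at T48, and 38 of 45 genes were within 1.2-fold of each other at T0, against 58.4% of all genes. The MCM2-7 subunits were close to each other at T0 (median log2 ratio of 0.01) but lower in the control line at T48 (-0.44). WT and the HSF1-rescue line, both with HSF1, had MCM2-7 sums of 164.1 and 275.4 TPM at T0. Those of Hsf1-/- and the control line were 446.7 and 458.1 TPM. At T48 the sums were 158.2 and 176.9 TPM in the former pair and 131.2 and 93.8 TPM in the latter.

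The HSF1-rescue line set against the control line is the comparison of lines that differ by Hsf1 at the inserted locus. They are also separate clones, so a difference due to Hsf1 and one between clones cannot be told apart. At T0 40 of 45 genes were lower in the HSF1-rescue line, against 56.5% of all genes, or 39 once scaled, against 50.9%. Their median log2 ratio was -0.57, against -0.09 over all genes. Counted as lower were 2 of 45, against 2.41% of 7841 genes: the B subunit of polymerase alpha (2.11-fold) and g11054. After scaling it was 1, against 2.06%. None was counted as higher, against 4.57% (5.17% after scaling). In 36 of 45 genes the HSF1-rescue mean at T0 lay between those of WT and the control line, against 34.5% of all genes (31 after scaling, against 21.7%). At T48 the median log2 ratio was -0.12, and 2 of 45 were counted as higher in the HSF1-rescue line, against 5.83% of 8454 genes. They were MCM3, with 25.9 TPM against 8.86 TPM (2.92-fold), and MCM2, with 61.4 TPM against 23.8 TPM (2.58-fold). After scaling, the median was 0.20 and ORC6 joined them (3 genes, against 9.64% of all genes). The sign of the median at T48 therefore depended on the scale, but all 6 MCM2-7 subunits were higher in the HSF1-rescue line at T48 on both scales, from 0.43 (MCM5) to 1.45 (MCM3) as deposited. Lower at T0 and higher at T48 in the HSF1-rescue line were 15 of 45 genes, against 12.8% of all genes, or 27 after scaling, against 21.9%.

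**Figure D3:**
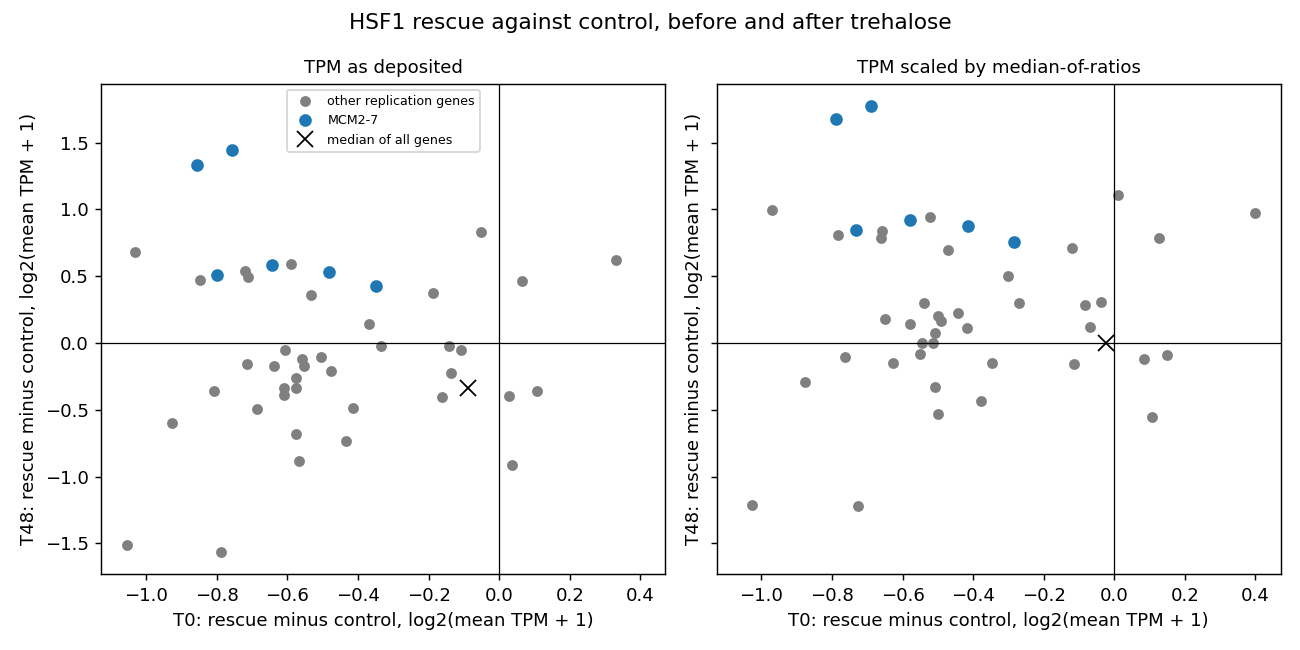
HSF1-rescue minus control line in log2(mean TPM + 1) at T0 (x axis) and T48 (y axis) for the 45 genes, as deposited (left) and scaled (right). Each point is a gene and the cross is the median of all genes. All 6 MCM2-7 subunits (blue) lie in the upper left, lower at T0 and higher at T48 in the HSF1-rescue line, with MCM3 at 1.45 at T48 as deposited.

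The response of the HSF1-rescue line minus that of the control line had a median of 0.38 over the 45 genes, against -0.23 over all genes, and of 0.65 against 0.04 after scaling. It was at least 1 in 10 of 45 genes, against 4.85% of the 8963 genes of at least 1 TPM in some group, and at most -1 in none, against 13.9%. After scaling it was at least 1 in 13, against 8.12%, and at most -1 in none, against 8.20%. By role the median was 1.27 for MCM2-7, 0.62 for RPA, 0.56 for the genes of helicase activation, 0.45 for ORC, 0.42 for the replicative polymerases and 0.40 for the clamp loader. It was -0.10 for the mitochondrial enzymes and -0.46 for the other MCM domain genes. These 2 groups and the genes annotated outside replication (-0.07) were the only ones with a negative median, and after scaling only the other MCM domain genes had one (-0.21).

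Over the 45 genes the lines lay farther apart at T0 than at T48. The highest over the lowest line at T0 had a median of 2.17-fold over the 45 genes, against 1.60-fold over the 6988 genes of at least 1 TPM in every group. At T48 it was 1.62-fold, against 1.65-fold over those genes. At least 2-fold apart were 26 of 45 genes at T0 (57.8%, against 26.4% of all) and 13 at T48 (28.9%, against 28.5%). After scaling it was 19 at T0 (42.2%, against 21.4%) and 10 at T48 (22.2%, against 23.6%). For the MCM2-7 subunits the median was 2.57-fold at T0 and 1.63-fold at T48 as deposited. After scaling it was 2.07-fold and 1.93-fold, so their lines were then nearly as far apart at T48. The highest of the 8 means was that of Hsf1-/- or the control line at T0 in 33 of 45 genes, against 23.2% of all (37 after scaling, against 26.2%). The summed level of the 47 genes was 895.2, 1716, 1731 and 1228 TPM in WT, Hsf1-/-, the control line and the HSF1-rescue line at T0, and 1017, 1094, 981.7 and 1019 TPM at T48. After scaling the sums were 1150, 1775, 1839 and 1368 TPM at T0 and 870.8, 904.0, 801.3 and 1068 TPM at T48. The direction in WT and the highest line at T48 thus depended on the scale.

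Other genes of the cell cycle were taken from lists made by annotation and without the 47 genes. Replication proteins without the 2 ontology terms (19 of 23 at 1 TPM or more) had median log2 ratios of 0.24 in WT, -0.97 in Hsf1-/-, -1.02 in the control line and -0.54 in the HSF1-rescue line. In the same order of lines 0, 9, 10 and 2 of 19 were at least 2-fold lower and 5, 4, 4 and 2 higher, beside the shares of all genes given above. After scaling 3, 10, 10 and 2 were lower and 2, 4, 2 and 2 higher. PCNA (g6300), chosen for its place beside MCM6 after its values were seen, was at 92.4 and 91.5 TPM in WT, 279.5 and 95.5 TPM in Hsf1-/-, 242.7 and 91.3 TPM in the control line and 159.3 and 99.97 TPM in the HSF1-rescue line. As deposited its 4 means at T48 thus lay within 91.3 and 99.97 TPM. The scaling factors at T48 ran from 0.953 in the HSF1-rescue line to 1.23 in the control line, so the scaled means lay farther apart. The large primase subunit (g12532), beside MCM2, was at 53.6 and 10.5 TPM in the control line and 28.4 and 22.7 TPM in the HSF1-rescue line. In the lists, TPM values given as a pair with "against" are those of the control line and then of the HSF1-rescue line at T48. In this list it and a DNA ligase with BRCT domains (g7414, 5.02 against 17.2 TPM) were the highest in HSF1-rescue over control at T48. The lowest were another such ligase (g13423, 24.2 against 6.004 TPM) and a family B polymerase (g12259, 26.7 against 11.5 TPM), which the annotation patterns brought in and which were higher at T48 than at T0 in the control line.

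Genes of deoxynucleotide supply (14 of 19 at 1 TPM or more) had medians of 0.44, -0.25, -0.20 and 0.10 in WT, Hsf1-/-, the control line and the HSF1-rescue line. The dUTPase gene (g9374), whose enzyme keeps uracil out of DNA, was at 714.1 and 109.5 TPM in the control line and 594.2 and 211.2 TPM in the HSF1-rescue line. A deoxycytidylate deaminase-type gene (g13262) was at 15.5 TPM in the control line and 86.3 TPM in the HSF1-rescue line at T48, and cytidine deaminase-type genes went the other way (g13451, 152.8 against 61.7 TPM, and g6572, 33.4 against 9.05 TPM). The G1/S list (10 of 12) had medians of 0.05, -0.62, -0.45 and -0.34. In it a cyclin-dependent kinase inhibitor gene (g13954), whose product restrains entry into S phase, was at 126.2 TPM in the control line and 49.4 TPM in the HSF1-rescue line at T48. A retinoblastoma-type gene (g8044) was at 39.8 and 29.5 TPM, and the E2F/DP genes g10855 and g3766 were at 15.0 and 14.7 TPM and at 16.2 and 15.1 TPM.

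The mitosis list (29 of 31) had medians of -0.14, -0.59, -0.76 and -0.53, and the response of the HSF1-rescue line minus that of the control line had a median of 0.04 over it, with single genes from -1.01 to 0.99 (median of 0.32 after scaling). The genes at its ends for HSF1-rescue over control at T48 were a condensin subunit (g11597, 16.9 against 8.06 TPM), the checkpoint gene Mad1 (g7106, 21.5 against 12.2 TPM), a cyclin (g3839, 20.2 against 21.0 TPM) and a WD40 gene (g7740, 41.4 against 64.2 TPM). Core histones, which package newly made DNA, differed from all of these in their medians. Over 72 to 74 genes these were -2.61 in WT, -2.05 in Hsf1-/-, -1.72 in the control line and -2.10 in the HSF1-rescue line. By these medians they were lowest relative to T0 in WT. Median levels at T48 were near the floor, from 0.917 TPM in WT to 1.72 TPM in the control line. Summed levels went from 2861 to 2202 TPM in WT and 3219 to 2230 TPM in Hsf1-/-. They went from 3660 to 2330 TPM in the control line and 3580 to 2176 TPM in the HSF1-rescue line. By these sums as deposited WT fell the least. Poly(A) selection and near-identical copies limit histone values. At the ends of that list were the H2A gene g1647 (127.0 against 195.5 TPM) and the H2B gene g8245 (12.6 against 25.1 TPM), higher in the HSF1-rescue line at T48, and the H2B gene g1946 (14.7 against 1.17 TPM) and the H3 gene g11868 (46.4 against 13.4 TPM), lower in it.

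**Figure D4:**
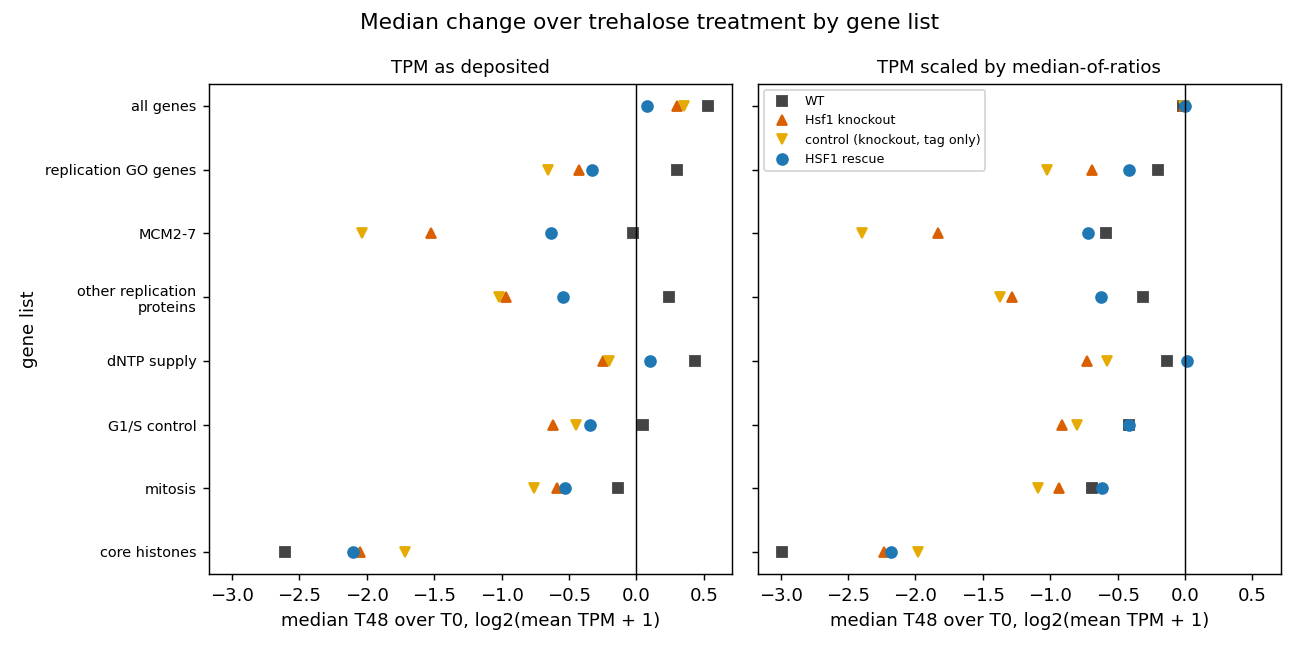
Median difference in log2(mean TPM + 1) between T48 and T0 (x axis) for each gene list (y axis) in the 4 lines, as deposited (left) and scaled (right). Points are medians over genes with no error. MCM2-7 shows the widest gap between the control line (-2.04) and the HSF1-rescue line (-0.64), and core histones are low in all 4 lines.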

How the data were processed

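Per the labels, the 24 libraries were made from poly(A) RNA with NEBNext kits. The authors aligned reads with HISAT2, marked duplicates with Picard, sorted with SAMtools 1.9, counted with HTSeq 0.6.0 without reads of more than 1 feature, and converted counts to TPM. The deposited table (25248 lines) repeats a gene for each motif match and gives mean TPM per group, which was read once per gene (columns sum to 998471 to 999131). TPM keeps no depth, so the depth per sample and the precision it gives cannot be read from the table. Columns of the authors' own clusters of differentially expressed genes were not used, and 0 columns of single samples were left aside. No build is named for the alignment. The listed start plus 1 base and the listed end match the Pv_5.2 gene table for 8123 genes, 11 of the 47 included, and coordinates are given so. Motif positions count from the start of the search region.

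Groups were compared by counts at least 2-fold different (mean TPM of at least 1 in either group, pseudocount 1) and by medians, in Python 3.11.15 with pandas 2.3.3 and numpy 2.4.6. Scaling used median-of-ratios factors from 8873 genes with no 0 in any group, and calls and factors were tested on simulated data. Alternatives were a pseudocount of 0.1, scaling, TPM without the 10 most abundant genes, no minimum or 5 TPM, and narrower member and motif sets. Every member of at least 1 TPM is named, and of each other list the 2 genes highest and the 2 lowest in HSF1-rescue over control at T48, if they reached 10 TPM in one of them. The 47 genes and the lists, made by annotation patterns, were chosen with earlier results of these data known. No test was planned for a table of means.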

Additional observations from a re-analysis of the deposited data

How the results depend on the processing

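No paired analysis was possible because the table holds 1 mean per group and no single libraries. For the same reason no library could be left out. Medians were taken as moved where they differed by 0.25 or more on the log2 scale, a limit set here since the table holds no spread between libraries, and counts where they differed by more than 1.5 times. TPM without the 10 most abundant genes and no minimum moved no count or median over the members. The DNA replication term alone and nuclear members alone, run for the medians only, moved none of them, nor did leaving out the 4 genes annotated outside replication, an alternative chosen after seeing the data. Scaling moved the median response to -0.20 in WT, -0.69 in Hsf1-/- and -1.02 in the control line, the median of HSF1-rescue over control at T48 to 0.20 and the difference of their responses to 0.65. Scaling also moved the genes at least 2-fold higher at T48 to 0 in WT, Hsf1-/- and the control line, those lower in WT to 2, those of Hsf1-/- over WT at T0 to 9 higher and 1 lower, and those lower in HSF1-rescue than control at T0 to 1. With a pseudocount of 0.1, 5 genes were higher in WT. With a minimum of 5 TPM, 0 were higher in Hsf1-/- and the control line and 1 was lower in HSF1-rescue than control at T0. With the 4 longer motifs, 6 genes had a match.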

Other observations

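Genes of helicase loading that lack both ontology terms, chosen by role after their values were seen, gave the following levels. CDT1 (g9259), which brings MCM2-7 to origins, was at 13.2 and 6.13 TPM in WT at T0 and T48, 37.7 and 5.53 TPM in Hsf1-/-, 41.0 and 3.61 TPM in the control line and 24.2 and 7.05 TPM in the HSF1-rescue line. Its inhibitor geminin (g4258) was at 93.4 and 69.8 TPM, 172.4 and 38.7 TPM, 127.5 and 33.0 TPM, and 83.4 and 43.9 TPM. Both were lower at T48 in all 4 lines, and the lowest of the 8 means of each was that of the control line at T48. ORC1 (g11056), the remaining ORC subunit, was at 10.4 and 12.4 TPM, 30.6 and 13.4 TPM, 27.1 and 8.36 TPM, and 18.5 and 11.5 TPM. A DNA ligase (g10966) went the other way in every line, at 33.3 and 74.4 TPM, 30.7 and 83.0 TPM, 30.9 and 79.7 TPM, and 26.8 and 87.7 TPM. As above, these are group means with no error.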
